A study of Mus musculus with 4 samples.

Results

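Thyroid hormone reaches a cell through membrane transporters, is activated or inactivated inside it by deiodinase enzymes, can be held by a cytosolic binding protein, and acts through nuclear receptors that sit on DNA with or without hormone. The deiodinases let neighbouring cells see different hormone levels from the same blood supply. In skin, the hormone is known to act on keratinocytes and on hair growth. The 6 genes described here cover these steps: Slc16a10 (transport), Crym (cytosolic binding), Dio2 and Dio3 (activation and inactivation) and Thra and Thrb (the receptors). They are 6 of the 23361 genes of an RNA-seq table of mouse hair peg cells. They were picked by name for their role, after the differences of Crym and Dio2 between the same Shh+ and Nfatc1+ libraries were known. Their values in this comparison are therefore given as a description, with no test, and nothing is read from how many of them differ.

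The study sorted cells from embryonic back skin at E17.5 and compared cells marked by Nfatc1 with cells marked by Shh. It aimed at the hair peg, a young follicle that is a column of epithelial cells growing down into the dermis. By the study's account, back skin of that age holds follicles of several stages. In both groups, embryos carried K14H2BGFP, a nuclear GFP of keratin 14 expressing epithelium, and a Rosa-stop-tdTomato reporter. CreER, a recombinase that needs tamoxifen, was expressed from Nfatc1 (Nfatc1-CreER) in one group and from Shh (Shh-CreER) in the other, so a library holds the cells that had used that gene when tamoxifen was given at E15.5, and their progeny. Each group had 2 libraries. The sources do not state whether these were separate animals, so a p-value below reflects the library-to-library spread alone, and that spread may be technical. Nfatc1+ cells were released by trypsin (0.25%, 16 min) from whole back skin, whereas skin for Shh+ cells was held in dispase (0.4 mg/ml, 1 h), stripped of epidermis and trypsinized for 10 min. The study states that the removed epidermis held placodes and hair germs, earlier follicle stages, and that the dermis kept for Shh+ cells held hair pegs alone. No such step is described for Nfatc1+ cells. Preparation and population cannot be told apart in any difference below.

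Expression was given as FPKM, fragments per kilobase of transcript, scaled by how many fragments of the library mapped. Of all genes, 12750 averaged 0.5 FPKM or more and were compared by limma on log2(FPKM + 0.5). A gene is called here at an adjusted p under 0.05. By this rule, 14.9% of tested genes were called higher in Shh+ cells, and for 16.6% the call went to Nfatc1+ cells. The 2 libraries of each group did not overlap for many more genes, with 35.6% of tested genes higher in both Shh+ libraries and 35.1% higher in both Nfatc1+ libraries. The file carries no counts, and depth was estimated from the steps between values of weakly expressed genes at about 11600000 and 10800000 fragments in Nfatc1+ replicates 1 and 2, and 10800000 and 6680000 in Shh+ replicates 1 and 2.

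Both deiodinases are selenoproteins. Their messenger RNA holds an in-frame TGA, a stop codon elsewhere, which the ribosome reads as selenocysteine. These windows are shown because they set Dio2 and Dio3 apart from the other 4 genes and tie them to the selenoprotein synthesis genes described further on. Each line gives 27 bases of the coding strand (GRCm38, GENCODE annotation), 5′ to 3′, with the in-frame TGA in capitals.
Dio2 codon 130 (chr12:90729811-90729837, minus strand, exon 2): ggttcagccaccTGAccacctttcact
Dio2 codon 263 (chr12:90729412-90729438, minus strand, exon 2): ttcagcaagagaTGAattctagattag
Dio3 codon 170 (chr12:110279727-110279753, plus strand, exon 1): ggcagctgtaccTGAccaccgttcatg
The first Dio2 codon and the Dio3 codon are those of the active site. The later Dio2 codon lies close to the end of the coding sequence, which has 266 codons in Dio2 and 304 in Dio3.

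The receptor gene Thra makes forms with different ends. Thra-202 encodes a receptor of 410 codons that binds hormone, and Thra-201 a form of 492 codons that lacks the hormone-binding end. They share 370 codons and then part. The lines below show the last 15 shared bases on the plus strand (chr11:98764391-98764405) in lower case, and in capitals the first 15 bases that each form has for itself. They are shown because a gene-level FPKM adds both forms together.
Thra-202, own bases in exon 9 (chr11:98764406-98764420): aagctgctgatgaagGTGACTGACCTCCGC
Thra-201, own bases in exon 10 (chr11:98768157-98768171): aagctgctgatgaagGAGAGAGAAGTGCAG

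**Figure D1:**
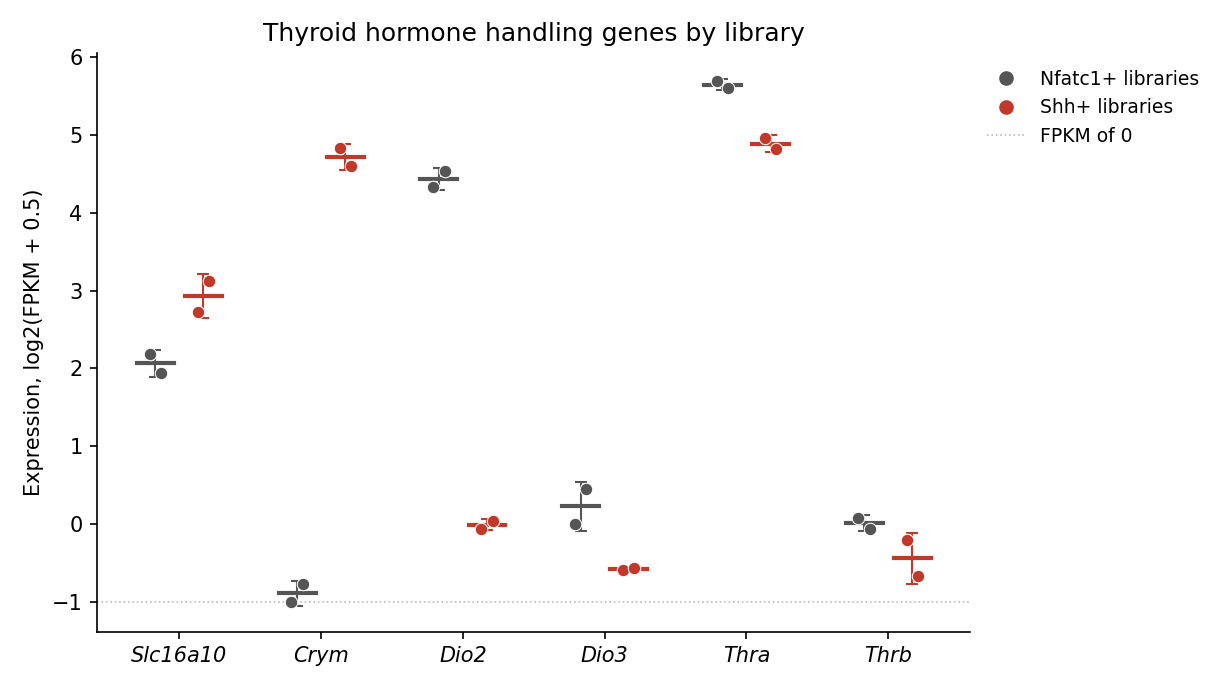
Expression of the 6 genes as log2(FPKM + 0.5) in each of the 4 libraries. Points are libraries, bars are group means and whiskers are the SD of 2 libraries. Crym and Slc16a10 were higher in both Shh+ libraries, and the other 4 genes were higher in both Nfatc1+ libraries.

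Slc16a10 encodes MCT10, a membrane carrier of aromatic amino acids and of thyroid hormone (chromosome 10, 40033532 to 40142258, minus strand, 6 exons in the longest coding transcript). It was at 4.05 and 3.35 FPKM in Nfatc1+ replicates 1 and 2 and at 6.13 and 8.22 FPKM in Shh+ replicates 1 and 2. Both Shh+ libraries were above both Nfatc1+ libraries, and the Shh+ libraries stood further apart from each other than the Nfatc1+ libraries did. The means were 7.17 ± 1.48 FPKM (SD, n = 2) in Shh+ cells and 3.70 ± 0.499 FPKM (SD, n = 2) in Nfatc1+ cells, a 1.94-fold ratio of means. On the log2(FPKM + 0.5) scale, where all differences below are Shh+ minus Nfatc1+, the difference was 0.86 (SE 0.17). Ranked by that difference, 788 tested genes lay further toward Shh+ cells.

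Crym encodes mu-crystallin, a cytosolic protein that binds triiodothyronine, the active hormone, in the presence of NADPH, and that also acts as a ketimine reductase (chromosome 7, 120186380 to 120202111, minus strand, 8 exons, 313 codons). It was listed at 0 in Nfatc1+ replicate 1 and at 0.0846 FPKM in Nfatc1+ replicate 2, against 28.0 and 23.8 FPKM in Shh+ replicates 1 and 2. At the estimated depths these values stand for about 0 and 1.11 fragments in the Nfatc1+ libraries and about 368 and 194 in the Shh+ libraries. Crym RNA was thus close to the detection limit in both Nfatc1+ libraries and well above it in both Shh+ libraries. The Shh+ mean was 25.9 ± 2.97 FPKM (SD, n = 2). No fold is given against a group with a library at 0. The fitted log2 difference was 5.60 (SE 0.13), which depends on the pseudocount, and only 1 of the 12750 tested genes lay further toward Shh+ cells. A listed 0 can be a failed estimate: 13 genes of the table were at 0 in one library and above 20 FPKM in another, of which 11 were small nucleolar RNA genes and Crym was one of the other 2. Whether the 0 of Crym is one was not tested.

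**Figure D2:**
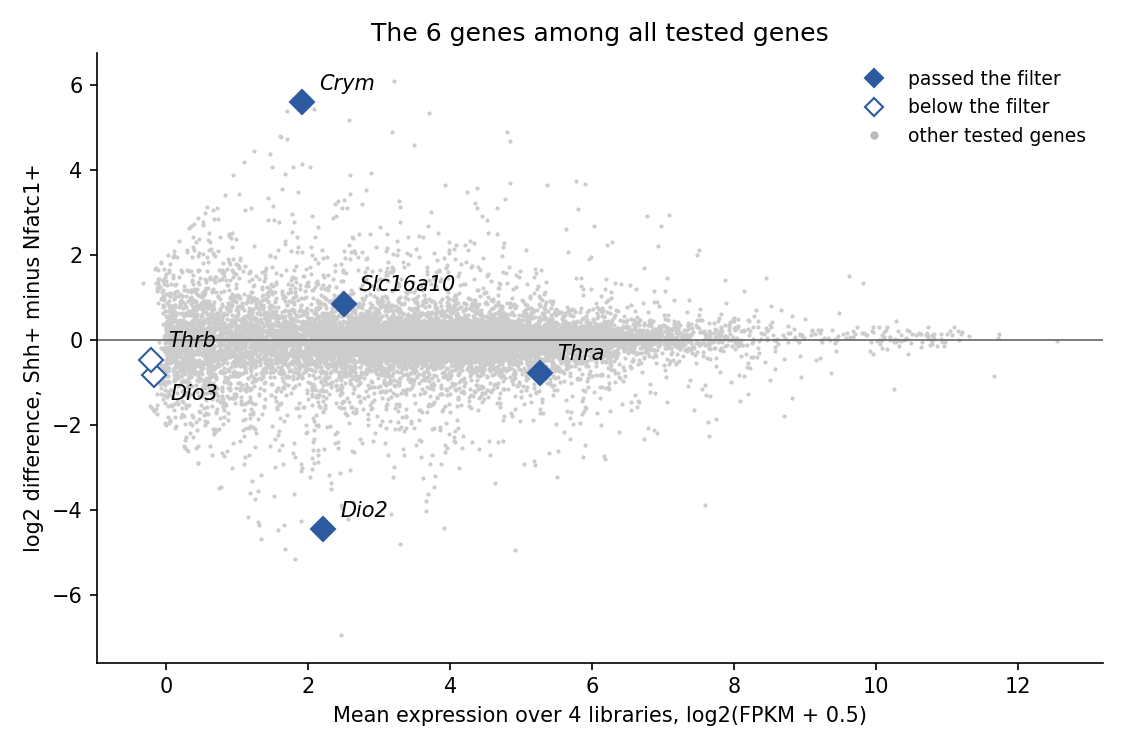
Difference between groups (Shh+ minus Nfatc1+, log2 of FPKM + 0.5) against the mean over the 4 libraries, for 12750 tested genes (grey) and the 6 thyroid hormone handling genes (diamonds, open where the mean was below 0.5 FPKM). Crym lies at the upper edge (5.60) and Dio2 near the lower edge (-4.44) of the cloud, Slc16a10 and Thra within it, and Dio3 and Thrb at its weakly expressed end.

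Dio2 encodes the deiodinase that turns thyroxine, the prohormone, into triiodothyronine (chromosome 12, 90724552 to 90738438, minus strand, 2 exons, 1 annotated transcript). It was at 19.7 and 22.6 FPKM in Nfatc1+ replicates 1 and 2, and at 0.459 and 0.529 FPKM in Shh+ replicates 1 and 2. The order was the opposite of that of Crym, but the low group was not empty: about 28 and 20 fragments lay behind the 2 Shh+ values, against about 1290 and 1380 in the Nfatc1+ libraries. The means were 21.1 ± 2.04 FPKM (SD, n = 2) and 0.494 ± 0.0491 FPKM (SD, n = 2), a 42.8-fold ratio. The log2 difference was -4.44 (SE 0.10), with 9 tested genes further toward Nfatc1+ cells. Crym and Dio2 each passed the 0.5 FPKM filter through the group in which they were high.

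Dio3 encodes the deiodinase that inactivates both thyroxine and triiodothyronine, and lies in an imprinted region (chromosome 12, 110279068 to 110281097, plus strand, 1 exon). It was at 0.504 and 0.869 FPKM in Nfatc1+ replicates 1 and 2 and at 0.163 and 0.175 FPKM in Shh+ replicates 1 and 2, and did not pass the filter. Both Nfatc1+ libraries were above both Shh+ libraries, at levels that rest on few molecules. With a transcript of 1868 bases, the values correspond to an estimated 10 and 16 fragments in the Nfatc1+ libraries and 3 and 2 in the Shh+ libraries. The group means of 0.686 and 0.169 FPKM gave a 4.06-fold ratio, which rests on 26 fragments in all for Nfatc1+ and 5 for Shh+ cells. FPKM of Dio2 was 39.1 and 26.0 times that of Dio3 in Nfatc1+ replicates 1 and 2 and 2.82 and 3.02 times in Shh+ replicates 1 and 2.

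Other genes differed between the Nfatc1+ libraries in the same direction as Dio3. Dlk1, which lies in the same imprinted region and is likewise expressed from the paternal copy, was at 3.64 and 7.21 FPKM in Nfatc1+ replicates 1 and 2 and at 3.36 and 4.36 FPKM in Shh+ replicates 1 and 2. Col1a1, a collagen gene of fibroblasts, was at 77.9 and 165 FPKM in the Nfatc1+ libraries and at 71.6 and 52.7 FPKM in the Shh+ libraries. Nfatc1+ replicate 2 was the highest library for Dio3, Dlk1 and Col1a1 alike, and also for Meg3 and Rian of the imprinted region. Rtl1, Mirg and Dio3os of that region, all below the filter, were highest in Nfatc1+ replicate 1. Among the fibroblast markers listed below, Dcn was highest in Shh+ replicate 2 and the others in Nfatc1+ replicate 2. The part of fibroblast RNA in the Dio3 values was not tested. Of the 6 genes of the imprinted region other than Dio3, 3 were tested (Dlk1, Meg3 and Rian) and none was called by limma, with adjusted p of 0.423, 0.48 and 0.717 and 0 at an unadjusted p under 0.05. Dio3os, a noncoding RNA gene beside Dio3, was listed at 0.231 and 0.0829 FPKM in Nfatc1+ and 0.166 and 0 FPKM in Shh+ libraries, too low to compare.

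Thra encodes the main thyroid hormone receptor of many tissues (chromosome 11, 98740638 to 98769006, plus strand, 10 exons in its longest coding transcript). It was at 51.25 and 48.0 FPKM in Nfatc1+ replicates 1 and 2 and at 30.7 and 27.6 FPKM in Shh+ replicates 1 and 2. Its mean expression was above that of 82.8% of tested genes, and it had the highest mean over the 4 libraries of the 6. The groups did not overlap, with means of 49.6 ± 2.33 FPKM (SD, n = 2) in Nfatc1+ cells and 29.2 ± 2.19 FPKM (SD, n = 2) in Shh+ cells, a 1.70-fold ratio. The log2 difference was -0.76 (SE 0.09), and 1092 tested genes lay further toward Nfatc1+ cells, so Thra sat in a far more common range of differences than Dio2. The gene-level value adds the hormone-binding form and the form without that end, whose first own bases are printed above. The 3′ end of Thra overlaps Nr1d1 on the opposite strand over 1075 bases, a stretch that holds all the coding bases particular to Thra-201. Nr1d1, which encodes a heme-binding repressor of the circadian clock, was at 3.49 and 2.86 FPKM in Nfatc1+ and at 3.27 and 3.09 FPKM in Shh+ libraries. The sources do not state that strand was used in counting, so reads of the overlap cannot be told apart, and the FPKM of both genes may hold reads of the other.

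Thrb encodes the other receptor (chromosome 14, 17660261 to 18038090, plus strand). It was at 0.560 and 0.462 FPKM in Nfatc1+ replicates 1 and 2 and at 0.366 and 0.128 FPKM in Shh+ replicates 1 and 2, and did not pass the filter. The groups did not overlap, but the gap between the lowest Nfatc1+ and the highest Shh+ library was smaller than the gap between the 2 Shh+ libraries. The means were 0.511 ± 0.0696 FPKM (SD, n = 2) and 0.247 ± 0.168 FPKM (SD, n = 2). In FPKM, Thra exceeded Thrb 91.5 and 104 times in Nfatc1+ replicates 1 and 2 and 84.0 and 216 times in Shh+ replicates 1 and 2. Receptor RNA was thus nearly all Thra in every library.

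In order of mean FPKM, Nfatc1+ cells had Thra, Dio2, Slc16a10, Dio3, Thrb and Crym, and Shh+ cells had Thra, Crym, Slc16a10, Dio2, Thrb and Dio3. In Nfatc1+ cells, Dio3 and Thrb were neighbours whose libraries overlapped. In Shh+ cells, Thra and Crym lay close together and their ranges overlapped, although Thra was the higher in each library, and the libraries of Thrb and Dio3 overlapped. Of the 6 genes, 2 were higher in both Shh+ libraries and 4 in both Nfatc1+ libraries, beside the 35.6% and 35.1% of all tested genes given above. Dio3 and Thrb, 2 of those 4, were below the filter and so are not among the genes behind these shares. In bulk libraries of sorted cells, fewer cells with an RNA and less of it per cell cannot be told apart.

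All 7 epithelial markers were tested and summed to 8327 and 8173 FPKM in Nfatc1+ and 5877 and 5739 FPKM in Shh+ libraries. Of the epithelial markers, 4 were called higher in Nfatc1+ cells, Krt5 (means of 4320 against 2429 FPKM), Trp63 (311 against 239), Cdh1 (229 against 120) and Itga6 (92.5 against 28.7), and Krt14, Krt17 and Epcam were not called. Other lists also moved with the group in the direction of Dio2, Dio3, Thra and Thrb. All 7 Merkel cell markers were called higher in Nfatc1+ cells, with a summed level of 53.2 and 60.9 FPKM in Nfatc1+ and 18.8 and 23.4 FPKM in Shh+ libraries, as were 5 of 6 sebaceous markers (164 and 156 against 85.8 and 69.7 FPKM) and 5 of 8 immediate early genes (2583 and 2841 against 1154 and 1235 FPKM). The remaining sebaceous marker, Fasn, was not called and went the other way, at 35.8 and 38.8 FPKM in Nfatc1+ and 54.35 and 41.5 FPKM in Shh+ libraries. Of 7 tested fibroblast markers, only Dcn was called, higher in Shh+ cells as Crym and Slc16a10 were. The list summed to 286 and 552 FPKM in Nfatc1+ and 548 and 607 FPKM in Shh+ libraries. Dcn alone made up 40.3 and 57.65 FPKM of the Nfatc1+ sums and 326 and 425 FPKM of the Shh+ sums. The list median log2 difference was -0.52. Col1a1, Col1a2, Col3a1 and Pdgfra were higher in both Nfatc1+ libraries, and the groups overlapped for Lum and Twist2. Of 8 melanocyte markers, 1 was called, Mitf, higher in Nfatc1+ cells, with sums of 30.6 and 64.1 against 7.89 and 41.5 FPKM. Of 4 tested endothelial markers none was called by limma, also at an unadjusted p under 0.05, and of 3 tested immune markers 1 was, Aif1, higher in Shh+ cells. The immune list summed to 2.07 and 2.36 FPKM in Nfatc1+ and 3.80 and 6.10 FPKM in Shh+ libraries, with Cd3e and Cd207 listed at 0 throughout. The part of these cells and of dissociation in the values of the 6 genes was not tested.

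The other genes of the pathway were taken from 9 lists, which held 72 genes besides the 6 that are reported here. Of these, 49 were tested, 38 were not called, 6 were called toward Shh+ cells and 5 toward Nfatc1+ cells, and the median log2 difference was 0.029, against 0.002 over all tested genes. These counts stand against the 14.9% and 16.6% of all tested genes. Because the lists were chosen with earlier results of these data known, nothing is read from these counts. Differences are described gene by gene.

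**Figure D3:**
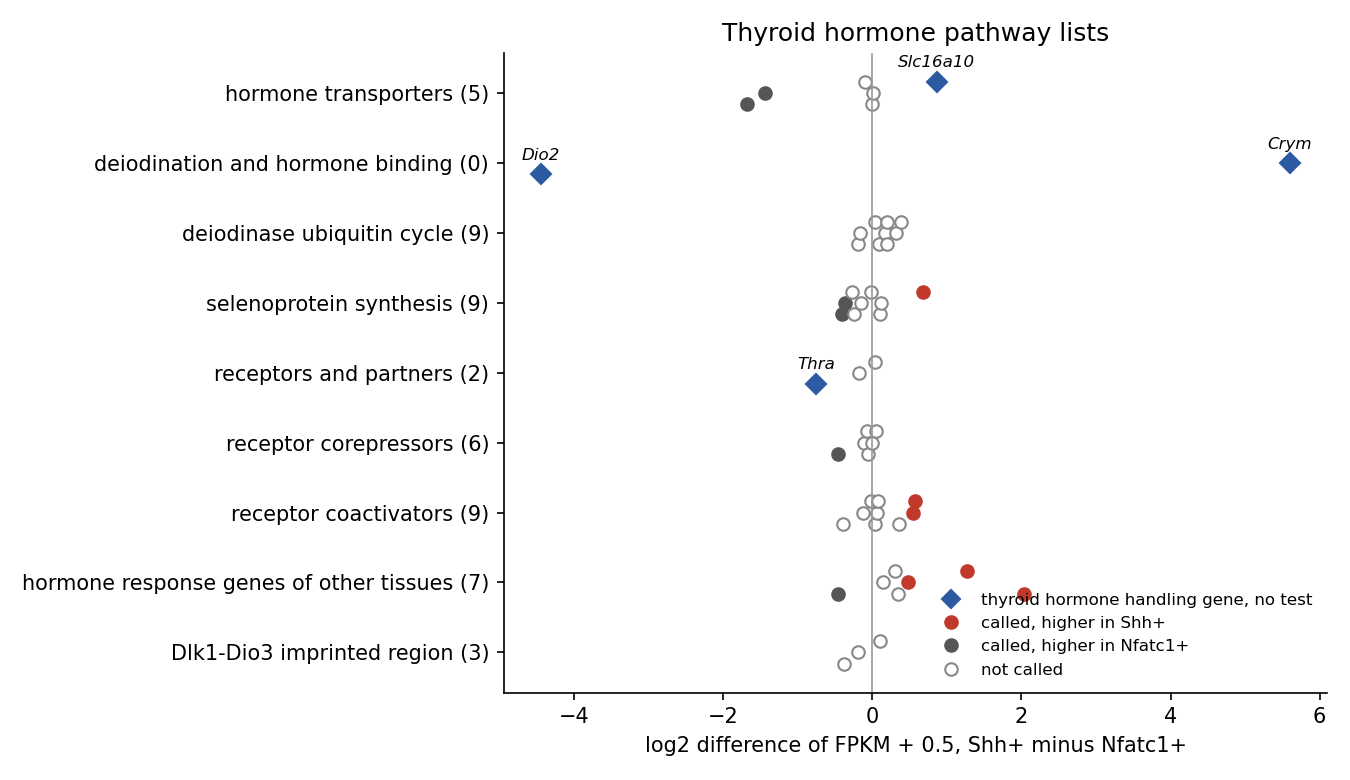
Log2 difference (Shh+ minus Nfatc1+) of every tested gene of the 9 pathway lists, with the number tested besides the 6 genes in brackets. Filled circles are genes called by limma, open circles genes not called, and diamonds the 4 thyroid hormone handling genes that passed the filter. Hr is drawn in both lists that hold it. The transporters called lie on the Nfatc1+ side and Slc16a10 on the other.

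Among hormone transporters, 2 of the 5 tested genes described here were called, both higher in Nfatc1+ cells, with a list median of -0.10. Slco4a1, an organic anion carrier that takes up thyroid hormone, was at 11.5 and 9.70 FPKM in Nfatc1+ and at 3.23 and 2.71 FPKM in Shh+ libraries (log2 difference -1.68, limma adjusted p = 0.0019). Slc7a8, an amino acid exchanger that also carries the hormone, was at 3.15 and 3.14 FPKM in Nfatc1+ and 0.766 and 0.926 FPKM in Shh+ libraries (log2 difference -1.44, limma adjusted p = 0.0012). Both differed in the direction opposite to that of Slc16a10. The most expressed carriers were level between the groups: Slc7a5 and Slc3a2, the subunits of an amino acid exchanger, had means of 79.2 and 81.4 FPKM in Nfatc1+ cells and 79.2 and 81.6 FPKM in Shh+ cells (limma adjusted p = 0.995 and 0.97). Slco1c1, the carrier of brain capillaries, was listed at 0 in all 4 libraries.

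The other deiodination and hormone-binding genes were near 0. None of the 6 genes passed the filter. Dio1, the deiodinase of liver and kidney, was listed at 0 in all 4 libraries, as were Ttr and Serpina7, the hormone carriers of blood, and the sulfotransferase Sult1b1. Iyd, which recovers iodide in the thyroid, reached at most 0.202 FPKM, and Sult1a1, a sulfotransferase, at most 0.537 FPKM. Crym and Dio2 were the only genes of that list above 1 FPKM in any library.

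Dio2 protein is removed by ubiquitination, through the adaptor Wsb1 or the ligase March6, and rescued by the deubiquitinases Usp20 and Usp33. All 9 genes of this cycle were tested and limma called none of them at the adjusted threshold (2 had an unadjusted p under 0.05), with a median log2 difference of 0.16. Wsb1 was at 54.0 and 57.4 FPKM in Nfatc1+ and 59.5 and 68.3 FPKM in Shh+ libraries (limma adjusted p = 0.218), and March6 at 25.5 and 26.0 FPKM as group means (0.792). Usp20 (limma adjusted p = 0.0552) and Tceb2, a subunit of the Wsb1 ligase (0.051), lay just outside the threshold. Both were called higher in Shh+ cells at a pseudocount of 1 (0.0465 and 0.0403), among genes with a mean of 2 FPKM or more (0.0375 and 0.0357), with upper-quartile scaling (0.0481 and 0.0386) and with an intensity trend (0.0403 and 0.00885). The log2 differences of the 9 genes ran from -0.19 to 0.39, against -4.44 for Dio2 itself.

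Of 9 genes of selenoprotein synthesis, which both Dio2 and Dio3 need for the TGA codons shown above, 2 were called higher in Nfatc1+ cells and 1 the other way. Secisbp2l, a paralog of the factor that binds the selenocysteine insertion element, was at 19.2 and 19.9 FPKM in Nfatc1+ and 14.9 and 15.3 FPKM in Shh+ libraries (log2 difference -0.37, limma adjusted p = 0.0258). Pstk, a kinase on the way to selenocysteyl tRNA, was at 19.4 and 19.0 FPKM in Nfatc1+ and 14.8 and 13.9 FPKM in Shh+ libraries (log2 difference -0.41, limma adjusted p = 0.0209). Neither call held when any single library was left out (adjusted p = 0.0792 to 0.131 for Secisbp2l and 0.0565 to 0.104 for Pstk). Trit1, which modifies a base next to the anticodon of this and other tRNAs, was at 7.07 and 7.23 FPKM in Nfatc1+ and 11.2 and 12.4 FPKM in Shh+ libraries (log2 difference 0.68, limma adjusted p = 0.00656). Secisbp2, the insertion factor itself, was not called (adjusted p = 0.469).

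Thyroid hormone receptors bind DNA with a retinoid X receptor. Rxra was the most expressed gene of the receptor list, at 139 and 145 FPKM in Nfatc1+ and at 132 and 120 FPKM in Shh+ libraries, and limma did not call it (log2 difference -0.17, adjusted p = 0.209). Rxrb was not called either (adjusted p = 0.87), and Rxrg was below the filter. In FPKM, Rxra exceeded Thra 2.72 and 3.01 times in Nfatc1+ replicates 1 and 2 and 4.31 and 4.33 times in Shh+ replicates 1 and 2, so partner RNA was in excess in every library.

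Without hormone the receptors recruit corepressors. Of the 6 corepressor genes described here, 1 was called higher in Nfatc1+ cells, the direction of Thra, and 5 were not called. Ncor1, a large corepressor that the receptors bind without hormone, was at 45.5 and 46.3 FPKM in Nfatc1+ and 43.1 and 41.7 FPKM in Shh+ libraries (adjusted p = 0.307). Hr, a skin and brain corepressor of thyroid hormone and vitamin D receptors whose loss leaves mice hairless, was at 118.1 and 118.8 FPKM in Nfatc1+ and 92.7 and 79.3 FPKM in Shh+ libraries (log2 difference -0.46, limma adjusted p = 0.0326). The call of Hr was lost on leaving out Nfatc1+ replicate 1 (adjusted p = 0.123), Nfatc1+ replicate 2 (0.131) or Shh+ replicate 2 (0.0859).

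With hormone the receptors bind coactivators instead. Of 9 coactivator genes, 2 were called higher in Shh+ cells and 7 were not called. Ncoa1 was at 11.9 and 13.1 FPKM in Nfatc1+ and 17.9 and 19.8 FPKM in Shh+ libraries (log2 difference 0.58, limma adjusted p = 0.0148). Ncoa2, of the same p160 family, was at 13.9 and 13.4 FPKM in Nfatc1+ and 20.2 and 20.2 FPKM in Shh+ libraries (log2 difference 0.55, limma adjusted p = 0.00825). The third of that family, Ncoa3, was not called (adjusted p = 0.451). The call of Ncoa1 was lost on leaving out Nfatc1+ replicate 1 (adjusted p = 0.0766) or Shh+ replicate 2 (0.0625), and that of Ncoa2 without Nfatc1+ replicate 2 (0.0558). Kat2b, an acetyltransferase, was not called (adjusted p = 0.0665) but was called higher in Nfatc1+ cells without Shh+ replicate 2 (0.0497) and among genes with a mean of 2 FPKM or more (0.0459). Prmt1, an arginine methyltransferase, was not called either (adjusted p = 0.0527) but was called higher in Shh+ cells at a pseudocount of 1 (0.0409), among genes with a mean of 2 FPKM or more (0.0363), with upper-quartile scaling (0.0398) and with an intensity trend (0.00983).

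**Figure D4:**
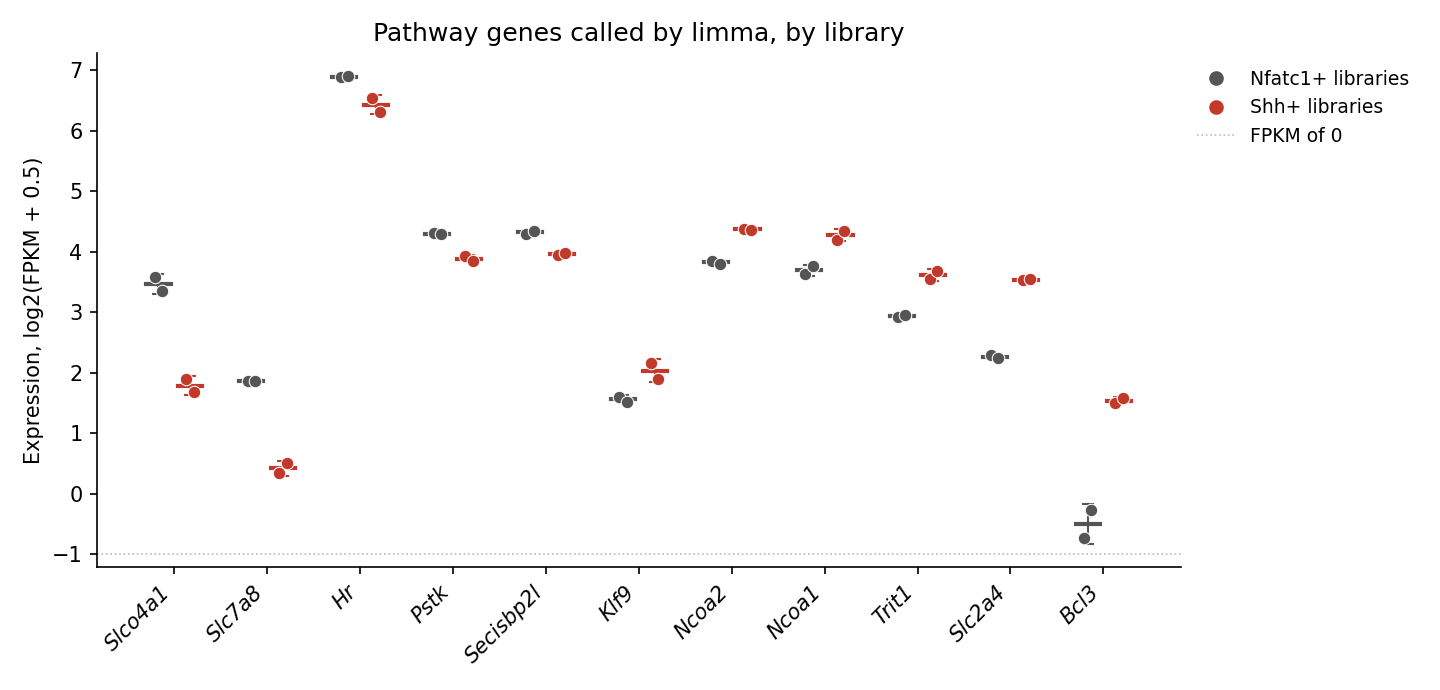
Expression, as log2(FPKM + 0.5), of the 11 pathway genes called by limma, in each of the 4 libraries. Points are libraries, bars group means and whiskers the SD of 2 libraries. The first 5 genes from the left were higher in Nfatc1+ cells and the last 6 in Shh+ cells, from Slco4a1 (-1.68) to Bcl3 (2.04).

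Of 15 genes that thyroid hormone is known to regulate in other tissues, such as liver, muscle and brain, 7 were tested, 3 were called higher in Shh+ cells and 1, Hr, the other way. Slc2a4, the insulin-responsive glucose carrier of muscle and fat, was at 4.43 and 4.22 FPKM in Nfatc1+ and 11.1 and 11.2 FPKM in Shh+ libraries (log2 difference 1.27, limma adjusted p = 0.00102). Bcl3, a nuclear regulator of NF-kappaB, was at 0.103 and 0.332 FPKM in Nfatc1+ and 2.33 and 2.50 FPKM in Shh+ libraries (log2 difference 2.04, limma adjusted p = 0.00238). It passed the 0.5 FPKM filter through the Shh+ libraries, and its call was lost with no filter on low values (limma adjusted p = 0.0634). Klf9, a transcription factor that the receptors induce directly in several tissues, was at 2.55 and 2.36 FPKM in Nfatc1+ and 4.01 and 3.23 FPKM in Shh+ libraries (log2 difference 0.47, limma adjusted p = 0.0451). The call of Klf9 had the highest adjusted p of the 11 and was lost on leaving out Nfatc1+ replicate 1 (adjusted p = 0.123), Nfatc1+ replicate 2 (0.177) or Shh+ replicate 1 (0.112). Each of these genes has other regulators, and whether they were responding to hormone here was not measured. The liver and fat genes Thrsp, Pck1, G6pc and Ucp1 were at or near 0 in every library. The calls of Slco4a1, Slc7a8, Trit1, Slc2a4 and Bcl3 were kept whichever single library was left out.

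The genes most like each of the 4 that passed the filter were found as those with the smallest root mean square distance over the 4 libraries, on log2(FPKM + 0.5) centred on each gene's own mean. For Crym they were Ltb, a lymphotoxin subunit (distance 0.0877), Cd74, the invariant chain (0.225), and the urea carrier Slc14a1 (0.28). For Dio2 they were Amd1 (0.0586), Bcan, a brain proteoglycan (0.151), and Trf, transferrin (0.155). Ltb followed Crym closely, at 0.092 and 0.198 FPKM in Nfatc1+ and 29.1 and 25.5 FPKM in Shh+ libraries. Amd1, an enzyme of polyamine synthesis, was at 10.2 and 11 FPKM in Nfatc1+ and 0.0348 and 0.056 FPKM in Shh+ libraries, but it has a near-identical gene copy in mouse, so its value is uncertain. For Slc16a10 they were 2810001G20Rik (0.0251), Cthrc1, a secreted protein gene (0.0349), and Nhlrc1, a ubiquitin ligase gene (0.038). For Thra they were Fam84a (0.0226), the inositol phosphate kinase gene Itpk1 (0.0231) and Akr1e1, a reductase gene (0.0236). The distances of these last 6 genes were smaller, since many genes of the table have differences of that size, and likeness over 4 libraries in 2 groups is mostly likeness of the group difference.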

How the data were processed

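Per the labels and the study's methods, RNA of sorted tdTomato+ GFP+ cells was sequenced as paired ends, mapped by the authors to GRCm38/mm10 with TopHat2 (2.0.13) and quantified with Cufflinks (2.2.1). HTSeq is also listed, without a role. The deposited values are FPKM per gene and library (4 columns, 23361 genes), with no counts. The libraries were taken as 2 groups by label. Genes averaging 0.5 FPKM or more were compared on log2(FPKM + 0.5) with limma 3.58.1 (R 4.3.3, no trend), Benjamini-Hochberg adjusted over 12750 genes. The log scale understates changes of low genes. The fit was tested on simulated data.

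The members and the lists were chosen with earlier results of these data known. Some genes of the pathway are not reported here and were left out of the lists and their counts. All 6 members were named, and from the pathway lists all called genes. Of the genes not called, only some were named, also among those with a mean of at least 10 FPKM. These were examples chosen after their values were seen. Neighbours on the chromosome and the 3 most like genes were named by position and distance.

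Fragments per library were estimated from the spacing of values below 0.3 FPKM in genes with a single transcript, taking 160 bases off each length. Positions and sequences came from GRCm38 with GENCODE annotation, and the Dio3 transcript length from RefSeq. Alternatives covered pseudocount, filter, scaling, variance prior, replicate block, call rule and each library left out.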

Additional observations from a re-analysis of the deposited data

How the results depend on the processing

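None of the 6 genes changed direction under either scaling. Other pseudocounts and left-out libraries could not reverse them, since the groups did not overlap for any of the 6. The replicate block leaves a difference of group means as it is. The size of low genes depended on the pseudocount: at 0.1 in place of 0.5 the log2 difference was 7.57 for Crym, -5.16 for Dio2, -1.51 for Dio3 and -0.90 for Thrb, and at 1 it was 4.68 for Crym, -3.89 for Dio2 and -0.52 for Dio3. With no filter on low values, which adds genes at 0 in all 4 libraries (6269 of them), limma called 751 genes higher in Shh+ and 977 higher in Nfatc1+ cells, and 2 and 2 of the pathway genes, and Slco4a1 (adjusted p = 0.052) and Trit1 (0.0533) were among those lost; the cause was not tested. An unadjusted p under 0.01 with a fold over 2 gave 591 and 720 genes, and 2 and 2 of the pathway genes. Leaving out each library in turn gave 1036 to 1171 genes higher in Shh+ and 1191 to 1403 higher in Nfatc1+ cells, and 4 to 5 and 2 to 3 pathway genes. In these fits a lone library is assumed to vary like the other group. Replicate numbers are shared by the groups, and the deviations of same-numbered libraries correlated at 0.114 over 12750 genes with 2 pairs. The main fit took them to share only a number, but this correlation cannot show that they share nothing else. The melanocyte sums given above were higher in replicate 2 of both groups. The fit with the replicate block called 1719 genes higher in Shh+ and 1980 higher in Nfatc1+ cells, and 6 and 5 pathway genes. With an intensity trend, Eefsec (adjusted p = 0.0388) and Sephs1 (0.0397) were also called higher in Nfatc1+ cells and Me1 (0.0209) higher in Shh+ cells, and the call of Klf9 was lost (0.0526), as at a pseudocount of 0.1 (0.0549). Among genes with a mean of 2 FPKM or more, Eefsec (0.0414) and Me1 (0.0476) were called too. In all, 27 values moved and 79 did not. Counts of genes could not reverse, and the 6 genes could have done so under scaling alone. Few fragments limit Dio3, Thrb and, in Nfatc1+ libraries, Crym. The shallowest library was Shh+ replicate 2.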

Other observations

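The nearest genes of the table on either side of each of the 6 genes were compared with it. Anks4b, 0.793 kb from Crym, had the same order at a far lower level, at 0.092 and 0.0496 FPKM in Nfatc1+ and 0.546 and 0.48 FPKM in Shh+ libraries, below the filter. Abca14, on the other side of Crym, was listed above 0 in 1 library only. Cep128, 260 kb from Dio2, was level (limma adjusted p = 0.443), and Nrxn3, on the other side, did not exceed 0.039 FPKM. Of the neighbours of Slc16a10, Rev3l, the catalytic subunit of a translesion DNA polymerase, was called higher in Nfatc1+ cells, opposite to Slc16a10 (log2 difference -0.36, limma adjusted p = 0.0302), and Rpf2 was not called (0.161). Med24 and Msl1 beside Thra were not called (0.0685 and 0.207), nor was Ppp2r5c beside Dio3 (0.0674). By overlap of libraries alone, as the 6 genes are described, Rpf2 was higher in both Shh+ libraries (18.4 and 16.9 against 19.6 and 21.2 FPKM), as Slc16a10 was. Msl1 (43.25 and 42.3 against 38.4 and 39.0 FPKM) and Ppp2r5c (60.6 and 59.3 against 51.4 and 48.35 FPKM) were higher in both Nfatc1+ libraries, as Thra and Dio3 were, and Med24 was higher in both Shh+ libraries. Of all tested genes, 35.6% were higher in both Shh+ and 35.1% in both Nfatc1+ libraries, so nothing is read from these matches.

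Rarb, which encodes a retinoic acid receptor and is the nearest gene of the table on one side of Thrb, 841 kb away, was called higher in Shh+ cells, whereas Thrb was higher in both Nfatc1+ libraries. Rarb was at 0.526 and 0.426 FPKM in Nfatc1+ and 2.09 and 2.12 FPKM in Shh+ libraries (log2 difference 1.42, limma adjusted p = 0.00112). Nr1d2, on the other side of Thrb, was not called (adjusted p = 0.605).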
